A study of Mus musculus with 6 samples.

Results

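The Hox cluster genes encode homeodomain transcription factors that set position along the body axis of the embryo, and some of them are used again by blood-forming cells. The genes were taken as the rows of the array table whose single gene symbol is Hoxa, Hoxb, Hoxc or Hoxd followed by a number. This gave 37 genes among 19938 genes with a row of their own, namely 10 of the Hoxa, 9 of the Hoxb, 9 of the Hoxc and 9 of the Hoxd cluster, and each had 1 row. Hoxb8 shares its row with Hoxb7, so that row was left out of the 37.

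In mouse and human the Hox genes lie in 4 clusters, one on each of 4 chromosomes, and are numbered by their order within the cluster. Genes of the same number in different clusters are paralogues, and low-numbered genes are used toward the head and high-numbered genes toward the tail of the embryo. In haematopoietic stem and progenitor cells the Hoxa and Hoxb clusters are the ones known to be used, with Hoxa9 and Hoxb4 studied most, and levels drop as cells mature. HOX proteins bind DNA together with partners of the PBX and MEIS families, trithorax proteins such as KMT2A (MLL) keep the clusters open, and Polycomb complexes keep them silent.

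RNA of sorted bone marrow cells was measured on 6 Affymetrix arrays, 3 from mice labelled p65 KO and 3 from mice labelled p65 WT. Rela encodes p65, one of the DNA-binding subunits of NF-kB. The sort kept cells that carried c-kit and Sca-1 and lacked Flk2 and the lineage markers, a gate rich in stem cells, and the RNA of every sample was amplified before labelling. The series title places the deletion in blood-forming cells, while the sources used here do not give the Cre driver, the mouse strain, age or sex. The labels number the samples 1 to 3 within each genotype and do not say whether a sample is a single mouse or a pool. The submitters' text says that no technical replicates were made, and nothing in it gives litters or sort days.

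Values are deposited log2 signals, so a difference of 1 is a doubling. WT array 1 stood apart from the other 5. Its spread was narrower (SD 2.03 over all rows, against 2.22 to 2.29). Over all genes it correlated with the others at 0.951 to 0.963, where the other 5 correlated with each other more closely. Results that change with it are therefore given with and without it. Rela averaged 7.39 ± 0.08 in KO cells and 7.77 ± 0.22 in WT cells (SD, n = 3 each). Its log2 fold change, KO over WT, was -0.39 (SE 0.16, limma adjusted p = 0.209), and without WT array 1 it was -0.51 (limma adjusted p = 0.0400, range over 15 alternatives 0.0292 to 0.486). The sources used here do not say which part of Rela was deleted, so signal may remain from probes outside it. Of the gate genes, Kit lay at 10.02 to 10.18 in KO and 10.08 to 10.63 in WT cells, and Kit, Cd34 and Ptprc were high on all 6 arrays. Flt3, which encodes Flk2, lay at 7.39 to 7.94 in KO and 7.31 to 8.08 in WT cells, also above the background level of every array although the gate excludes Flk2, and 0 of these 4 genes passed the test used for the Hox genes. Without WT array 1, Kit passed lower in KO cells (log2 fold change -0.48, limma adjusted p = 0.04999, range over 15 alternatives 0.0465 to 0.688). Ly6a, the Sca-1 gene, was not analysed here.

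With no detection calls in the table, the 1027 olfactory receptor genes served as rows without a transcript in marrow. The 95th percentile of their signals on an array is called the olfactory receptor level here. It was 5.71, 5.43 and 5.39 on KO arrays 1, 2 and 3, and 6.87, 5.67 and 5.65 on WT arrays 1, 2 and 3. A gene was counted as above the level in a genotype where all 3 arrays exceeded their own level. Each row holds other probes, so signals of different genes are compared only with that level or in broad range.

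Along the clusters, Hox signal above the level was found in a continuous stretch of Hoxa and in the low-numbered part of Hoxb, and in neither Hoxc nor Hoxd. In KO cells 11 of 37 Hox genes (29.7%) were above the level, against 54% of all genes. These were Hoxa3, Hoxa4, Hoxa5, Hoxa6, Hoxa7, Hoxa9 and Hoxa10, and Hoxb1, Hoxb3, Hoxb4 and Hoxb5. In WT cells 3 of 37 Hox genes (8.11%) were above it on all 3 arrays, namely Hoxa4, Hoxa7 and Hoxa9, against 31.7% of all genes. On WT arrays 2 and 3 the same 11 genes as in KO cells were above it, and 55% of all genes were. The smaller WT number thus goes with the high level of WT array 1. With the 99th percentile as level, Hoxa4, Hoxa7, Hoxa9, Hoxb3 and Hoxb4 alone were above it in KO cells. The Hoxa stretch was then not continuous, and Hoxa3 and Hoxa6 were not in it.

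**Figure D1:**
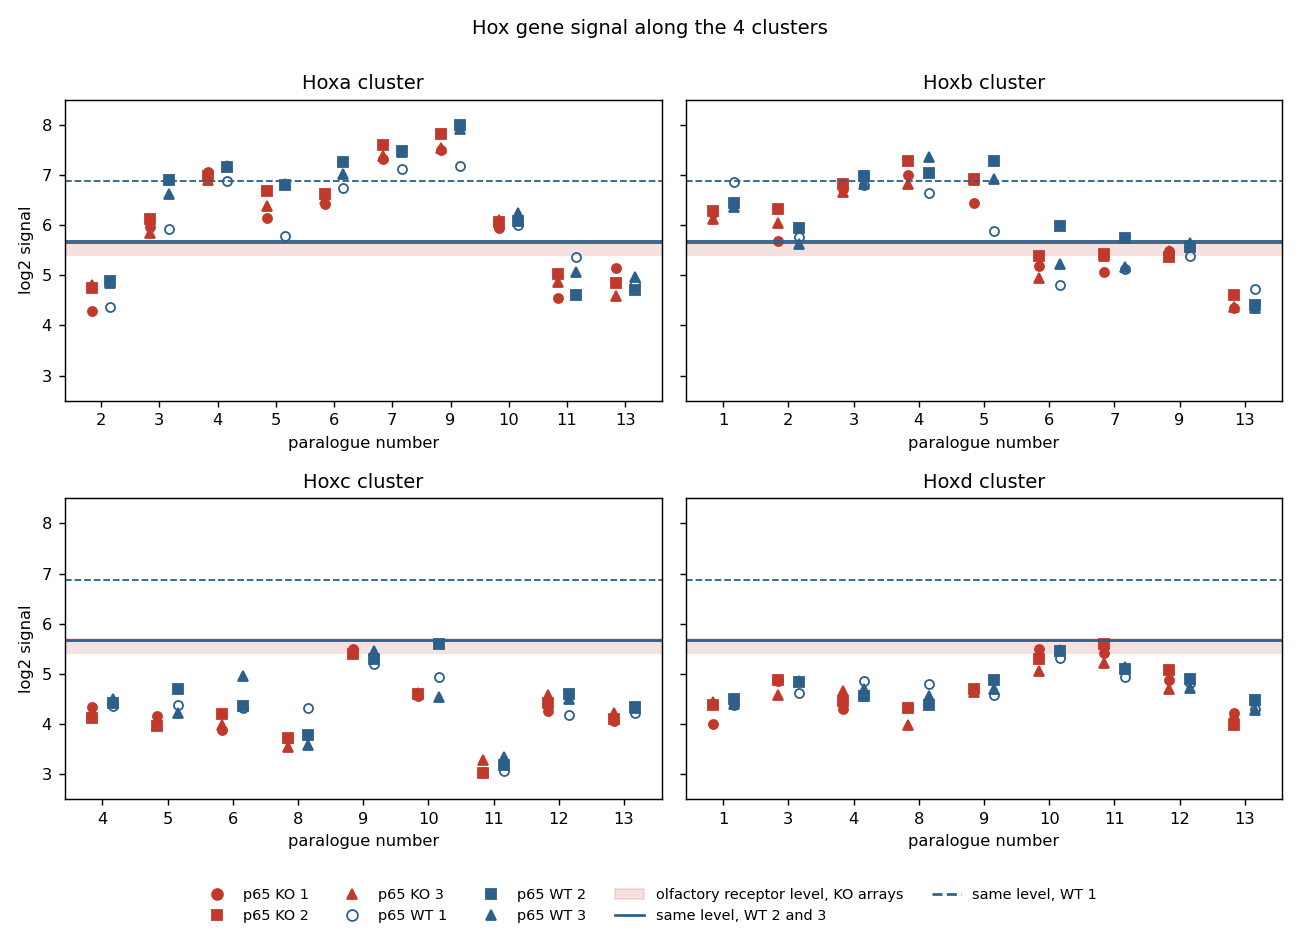
Log2 signal of each Hox gene on every array (y axis) in the order of paralogue number along its cluster (x axis), with KO arrays in red left of WT arrays in blue and WT array 1 as open circles. The shaded band spans the olfactory receptor level of the 3 KO arrays, the solid lines mark it for WT arrays 2 and 3 and the dashed line for WT array 1; 7 Hoxa and 4 Hoxb genes lie above the band in KO cells, and no Hoxc or Hoxd gene lies above it on all 3 KO arrays.

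By paralogue number, 3 of 7 genes of groups 1 to 3, 6 of 14 of groups 4 to 8 and 2 of 16 of groups 9 to 13 were above the level in KO cells. The 2 high-numbered genes were Hoxa9 and Hoxa10. Of the 37 genes, 20 exceeded the level on no array. On single arrays Hoxb2 exceeded it on 2 KO arrays and 1 WT array, Hoxb6 and Hoxb7 on 1 WT array each, and Hoxb9, Hoxc9 and Hoxd11 on 1 KO array each. KO arrays 1, 2 and 3 held 11, 13 and 14 Hox genes above their own level, and WT arrays 1, 2 and 3 held 3, 14 and 11. The highest Hoxc or Hoxd signal was 5.60 in KO cells, that of Hoxd11 on array 2, and 5.60 in WT cells, that of Hoxc10 on array 2.

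**Figure D2:**
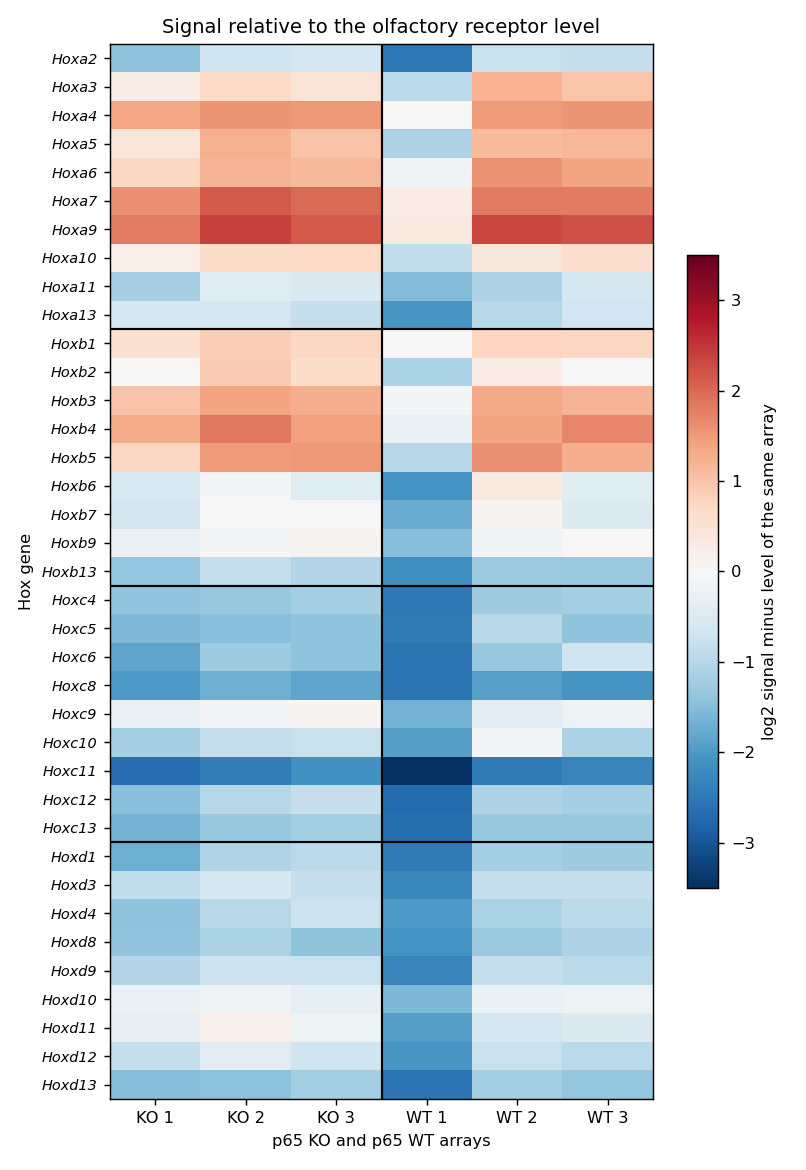
Log2 signal of each Hox gene minus the olfactory receptor level of the same array, as colour, with genes in cluster order down the page and the 3 KO arrays left of the 3 WT arrays. Red cells are above the level and blue cells below it; apart from WT array 1 the red blocks cover Hoxa3 to Hoxa10 and Hoxb1 to Hoxb5, with Hoxb2 near white on KO array 1 and WT array 3, and WT array 1 is paler or bluer in most genes.

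The genes around the clusters are given for position. The 3 nearest measured neighbours on each side of each cluster, with order taken from the RefSeq gene table, made 24 flanking genes. Of these, 18 were above the level on all 3 KO arrays, against 54% of all genes. On WT arrays 2 and 3, 19 were, against 55% of all genes. All 6 flanks of the Hoxc cluster were above it in KO cells, and 5 of 6 flanks of Hoxd. Nfe2, an erythroid and megakaryocyte transcription factor gene on the low-numbered side of Hoxc, averaged 9.99 ± 0.10 in KO and 10.03 ± 0.42 in WT cells, and Atp5g2, an ATP synthase subunit gene on the other side, averaged 11.9 ± 0.01 in KO and 11.7 ± 0.21 in WT cells (SD, n = 3 each). The Hoxc genes between them lay from 3.02 to 5.60 on all arrays. Of the 24 flanks 0 passed the limma test (lowest adjusted p = 0.0808), where 0.818% of all genes did. Without WT array 1, 2 of the 24 passed, both higher in KO cells, where 4.66% of all genes passed. These were Lnpk (log2 fold change 0.60, limma adjusted p = 0.0448) and Agps (0.58, limma adjusted p = 0.0381). Lnpk was neighbour 2 on the high-numbered side of Hoxd, and Agps neighbour 3 on the low-numbered side.

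Across genotypes, 0 of 37 Hox genes passed the test over all genes (limma, Benjamini-Hochberg adjusted p under 0.05), where 0.818% of all genes did, 137 higher and 26 lower in KO cells. At an unadjusted limma p under 0.05 there were 4 Hox genes (10.8%), against 21.6% of all genes. Of these, 3 were lower in KO cells (8.11%), against 7.76% of all genes: Hoxa6, Hoxc5 and Hoxc6. The fourth, Hoxd11, was higher. The KO and WT arrays did not overlap for 9 Hox genes (24.3%), against 34.6% of all genes, and in the lower direction for 8 (21.6%), against 15.4% of all genes. These shares are near or under those of all genes except for the last, which varied with signal. All genes were split by mean signal into 3 bins of 6646 genes, dim, middle and bright. Of these, 1519, 1406 and 142 were lower in KO cells without overlap. In the same bins 6 of 19, 2 of 16 and 0 of 2 Hox genes were. The 8 Hox genes were Hoxa6, Hoxb1, Hoxc4, Hoxc5, Hoxc6, Hoxc13, Hoxd8 and Hoxd13. Of them Hoxa6 and Hoxb1 alone were above the level in KO cells. For each of the 9 Hox genes without overlap the two-sided exact permutation p was 0.1, the smallest that 3 against 3 arrays allow.

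The median log2 fold change of the 37 genes was -0.09, against -0.04 over all genes. Of the 37 genes 29 were negative, against 10795 of all 19938 genes. The Hox median turned positive under quantile normalization (0.033), cyclic loess normalization (0.021) and centring arrays on their medians (0.057). Leaving out WT array 1 gave -0.17, against -0.03 over all genes, with 31 of 37 negative, against 10915 of 19938 genes. With array weights the Hox median was also -0.17, with 32 negative. Centring shifted the median of all genes by 0.15, and relative to all genes the Hox median was -0.05 there as in the deposited values. Single values ran from -0.52 for Hoxc6 to 0.35 for Hoxd11. Over all fits run, 10 genes kept a negative sign and 3 a positive one. The dim, middle and bright bins by mean signal, of 6646 genes each, held 19, 16 and 2 Hox genes. Of these Hox genes 17, 11 and 1 were negative, against 5901, 4008 and 886 of all genes in each bin. The median log2 fold change over all genes was -0.22 in the dim, -0.09 in the middle and 0.30 in the bright bin. That of the Hox genes was -0.17 in the dim and -0.08 in the middle bin, and -0.0010 in the bright bin, which held Hoxa7 and Hoxa9. Without WT array 1 the Hox medians were -0.16, -0.18 and -0.19 in the dim, middle and bright bins, against -0.09, -0.08 and 0.13 over all genes. Negative Hox genes then numbered 16, 13 and 2, against 4756, 4181 and 1978 of all genes in each bin.

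**Figure D3:**
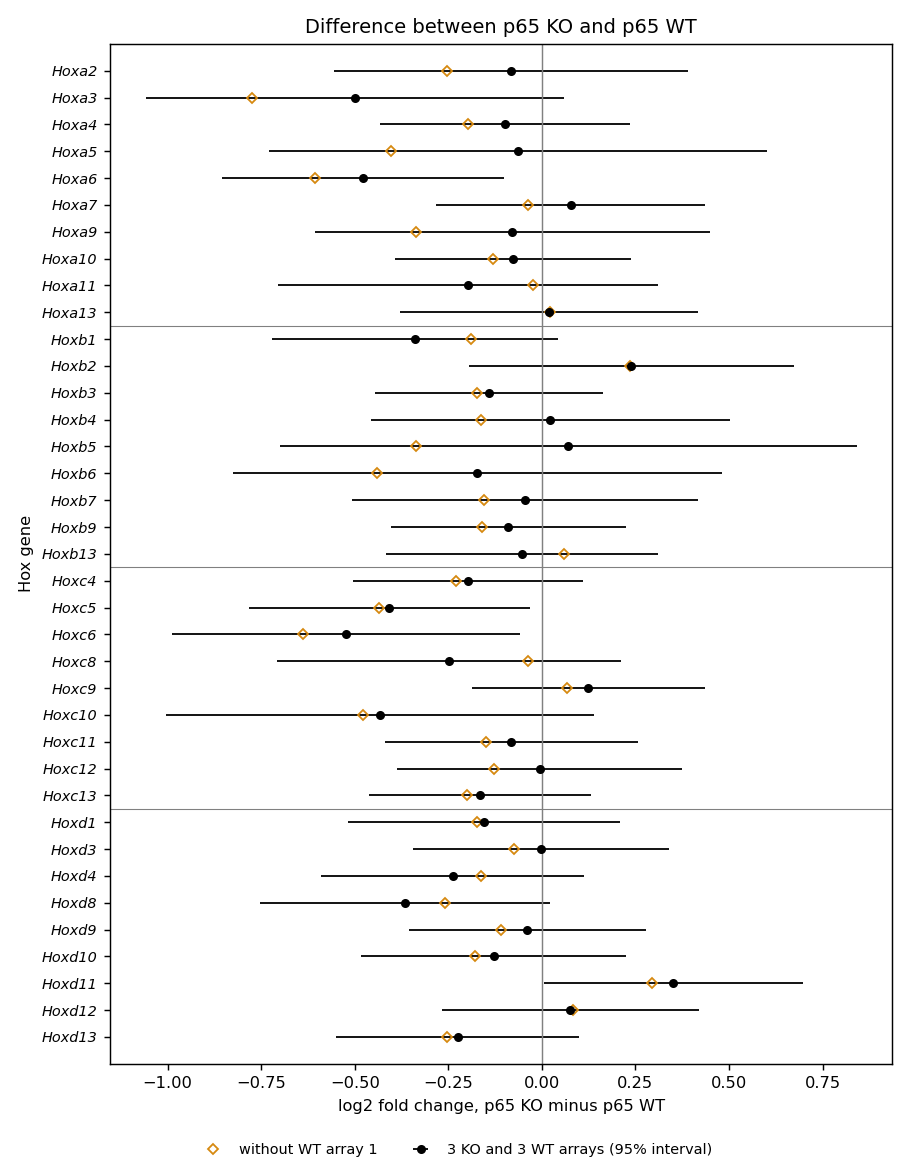
Log2 fold change, KO minus WT (x axis), of the 37 Hox genes in cluster order (y axis), with 95% intervals from limma in black and the value without WT array 1 as open diamonds. The interval of Hoxa6, Hoxc5 and Hoxc6 lies below 0 and that of Hoxd11 above 0 before adjustment, and without WT array 1 all 7 Hoxa genes from Hoxa3 to Hoxa10 lie below 0.

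Among the genes above the level, the Hoxa cluster holds most. Hoxa3 is a group 3 gene known for its part in the pharyngeal arches and the thymus. Its signal was 5.97, 6.13 and 5.84 in KO cells, against 5.93, 6.90 and 6.61 in WT cells. WT arrays 2 and 3 were above all KO arrays and WT array 1 lay among them. The log2 fold change was -0.50 (SE 0.24, limma adjusted p = 0.267). Without WT array 1 it was -0.78 (limma adjusted p = 0.0317), and the adjusted p ran from 0.0229 to 0.541 over 15 alternatives. The RefSeq model of Hoxa3 spans Hoxa4, Hoxa5 and Hoxa6 and the noncoding Hoxaas2 and Hoxaas3, so its row may hold signal of their transcripts, and the sources used here do not say whether the labelling keeps strand.

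Hoxa6, in the middle of the cluster, had 6.43, 6.62 and 6.53 in KO cells, against 6.75, 7.25 and 7.01 in WT cells. All KO arrays lay below all WT arrays. The log2 fold change was -0.48 (0.72-fold, SE 0.16, 95% interval -0.86 to -0.10) with an unadjusted limma p of 0.0192 and an adjusted p of 0.166, the lowest of the 37 genes. Without WT array 1 it was -0.61 (limma adjusted p = 0.0402), and over 15 alternatives the value stayed negative, from -0.61 to -0.33, with an adjusted p from 0.0263 to 0.442. On the scale of rank within an array, Hoxa6 lay above 57.1% of genes on average in KO cells and above 66.1% in WT cells.

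Hoxa9 is needed for normal numbers of mouse haematopoietic progenitors and drives leukaemia when kept on. It exceeded the olfactory receptor level on all 6 arrays, and its signal lay above that of 72.8% of genes in KO cells and 78.0% in WT cells on average. Its signal was 7.50, 7.81 and 7.54 in KO cells, against 7.18, 7.999 and 7.91 in WT cells. The groups overlapped, with WT array 1 the lowest of all 6. The log2 fold change was -0.08 (SE 0.23, 95% interval -0.61 to 0.45, limma adjusted p = 0.833), and -0.34 without WT array 1 (limma adjusted p = 0.162, range over 15 alternatives 0.162 to 0.969).

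Hoxa7, beside it, is also expressed in immature blood cells and had 7.32, 7.59 and 7.37 in KO cells, against 7.13, 7.48 and 7.45 in WT cells. KO array 2 was the highest and WT array 1 the lowest. The log2 fold change was 0.08 (SE 0.16, limma adjusted p = 0.758), and its sign turned without WT array 1 (-0.04). Hoxa10, which like Hoxa9 belongs to the posterior-type group used by progenitors, had 5.94, 6.06 and 6.10 in KO cells, against 6.00, 6.08 and 6.24 in WT cells. The groups overlapped, with a log2 fold change of -0.08 (SE 0.14, limma adjusted p = 0.725) and of -0.13 without WT array 1.

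Hoxa4 and Hoxa5 are the remaining pair of the stretch. Hoxa4 had 7.06, 6.97 and 6.90 in KO cells, against 6.88, 7.16 and 7.19 in WT cells, a log2 fold change of -0.10 (SE 0.14, limma adjusted p = 0.664) and of -0.20 without WT array 1. Hoxa5, known in human progenitor cultures for favouring myeloid over erythroid growth, had 6.13, 6.69 and 6.38 in KO cells, against 5.78, 6.79 and 6.81 in WT cells. Its spread was wide in both genotypes (SD 0.28 in KO and 0.59 in WT cells, n = 3 each), and its log2 fold change was -0.06 (SE 0.29, limma adjusted p = 0.895), and -0.40 without WT array 1 (limma adjusted p = 0.191, range over 15 alternatives 0.191 to 0.958). WT array 1 was the lowest array for both genes.

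**Figure D4:**
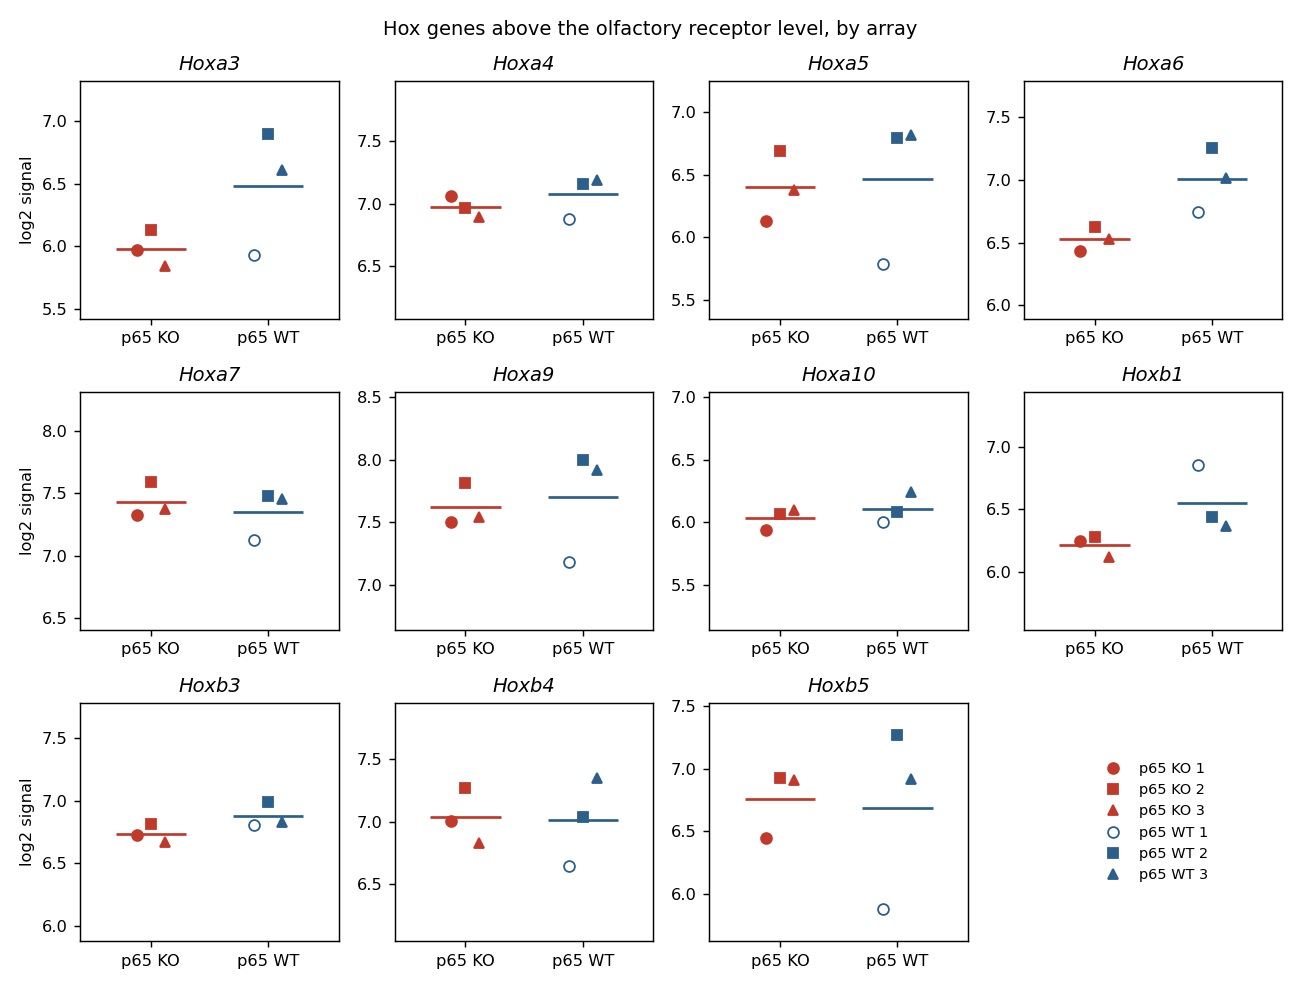
Log2 signal (y axis) of the 11 Hox genes above the olfactory receptor level, one panel each, with KO arrays left of WT arrays, horizontal bars at the group means and WT array 1 as an open circle. All panels span the same number of log2 units; the groups separate for Hoxa6 and Hoxb1, and WT array 1 is the lowest WT array in 10 of the 11 genes.

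In the Hoxb cluster, Hoxb4 is the gene best known in blood, since its forced expression expands mouse stem cells. It had 7.01, 7.27 and 6.83 in KO cells, against 6.65, 7.04 and 7.35 in WT cells. The groups overlapped fully, with a log2 fold change of 0.02 (SE 0.21, 95% interval -0.46 to 0.50, limma adjusted p = 0.951) and of -0.16 without WT array 1. Hoxb3 had 6.72, 6.81 and 6.67 in KO cells, against 6.81, 6.99 and 6.83 in WT cells, a log2 fold change of -0.14 (SE 0.13, limma adjusted p = 0.506). Its RefSeq model overlaps Hoxb4 and Mir10a.

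Hoxb5, a gene known to mark long-term stem cells in mouse marrow, had 6.45, 6.92 and 6.91 in KO cells, against 5.88, 7.27 and 6.92 in WT cells. WT array 1 alone set its wide WT spread (SD 0.73, n = 3). The log2 fold change was 0.07 (SE 0.34, limma adjusted p = 0.900), and -0.34 without that array. Hoxb1, a hindbrain gene, had 6.25, 6.28 and 6.12 in KO cells, against 6.85, 6.44 and 6.36 in WT cells. All KO arrays lay below all WT arrays, and WT array 1 was the highest here. The log2 fold change was -0.34 (SE 0.17, limma adjusted p = 0.268), and -0.19 without WT array 1.

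Without WT array 1, all 11 of these genes had a negative log2 fold change (median -0.20). Of the 37 Hox genes 2 (5.41%) then passed the limma test, Hoxa3 and Hoxa6, both lower in KO cells. Their RefSeq models overlap, and whether the 2 rows share transcript signal was not tested. Among all genes 4.66% passed without that array, so the share of Hox genes is near it. Of the 11 genes, Hoxa7 and Hoxa9 lay in the bright bin, where 1978 of 6646 genes were negative without that array, and the other 9 in the middle bin, where 4181 of 6646 were. With the replicate number as a block, 0 Hox genes passed, against 1.87% of all genes, and the lowest adjusted p was 0.121, that of Hoxa6.

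Of the genes below the level, Hoxc6 and Hoxc5 had the smallest p. Hoxc6 had 3.87, 4.20 and 3.99 in KO cells, against 4.31, 4.35 and 4.96 in WT cells (log2 fold change -0.52, SE 0.20, limma adjusted p = 0.198). Hoxc5 had 4.16, 3.97 and 3.97 in KO cells, against 4.39, 4.71 and 4.23 in WT cells (log2 fold change -0.41, SE 0.16, limma adjusted p = 0.208). The groups did not overlap for either gene, but no array was above the olfactory receptor level, so neither value shows a transcript. Hoxd11, picked after its values were seen as the one gene with KO arrays above all WT arrays, had 5.42, 5.60 and 5.22 in KO cells, against 4.94, 5.09 and 5.14 in WT cells (log2 fold change 0.35, SE 0.15, limma adjusted p = 0.225). It exceeded the level on KO array 2 alone.

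Hoxb2, a hindbrain gene next to Hoxb1 in the cluster, lay at the edge of the level and had 5.69, 6.33 and 6.05 in KO cells, against 5.77, 5.94 and 5.63 in WT cells. The groups overlapped (log2 fold change 0.24, SE 0.19, limma adjusted p = 0.438), and KO arrays 2 and 3 and WT array 2 exceeded their own level.

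The remaining 23 genes, Hoxb2 among them, are given by range. In Hoxa, Hoxa2, Hoxa11 and Hoxa13 lay from 4.29 to 5.14 in KO and from 4.36 to 5.36 in WT cells. In Hoxb, Hoxb2, Hoxb6, Hoxb7, Hoxb9 and Hoxb13 lay from 4.34 to 6.33 in KO and from 4.34 to 5.99 in WT cells, Hoxb2 the highest in KO and Hoxb6 in WT cells. In Hoxc, Hoxc4, Hoxc8, Hoxc9, Hoxc10, Hoxc11, Hoxc12 and Hoxc13 lay from 3.02 to 5.49 in KO and from 3.07 to 5.60 in WT cells. In Hoxd, Hoxd1, Hoxd3, Hoxd4, Hoxd8, Hoxd9, Hoxd10, Hoxd12 and Hoxd13 lay from 3.98 to 5.49 in KO and from 4.28 to 5.47 in WT cells. The row shared by Hoxb7 and Hoxb8 lay from 4.12 to 4.53 in KO and from 4.14 to 4.58 in WT cells, above the level on 0 arrays.

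Promoter sequence is shown for Hoxa6, the gene with the lowest p, and for Hoxa9, which was above the level on all 6 arrays, because the clusters are known for CpG-dense starts and p65 binds DNA. Windows of 300 bases (250 before and 50 after the annotated start, RefSeq, GRCm38.p6) were at hand for 21 of the 37 genes, 23 windows in all. Each is given 5′ to 3′ on the gene's strand with CpG pairs in capitals. The window of Hoxa6 is chr6:52208623-52208922, minus strand, with 26 CpG pairs and 62.0% GC, and that of Hoxa9 is chr6:52227321-52227620, minus strand, with 4 CpG pairs and 49.7% GC.
Hoxa6: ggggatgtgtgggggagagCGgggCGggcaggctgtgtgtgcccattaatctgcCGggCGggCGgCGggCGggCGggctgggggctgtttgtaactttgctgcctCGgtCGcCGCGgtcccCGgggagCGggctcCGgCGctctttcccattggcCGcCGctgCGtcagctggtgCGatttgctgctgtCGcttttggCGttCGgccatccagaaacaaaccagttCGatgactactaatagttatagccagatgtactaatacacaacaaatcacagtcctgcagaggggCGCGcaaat
Hoxa9: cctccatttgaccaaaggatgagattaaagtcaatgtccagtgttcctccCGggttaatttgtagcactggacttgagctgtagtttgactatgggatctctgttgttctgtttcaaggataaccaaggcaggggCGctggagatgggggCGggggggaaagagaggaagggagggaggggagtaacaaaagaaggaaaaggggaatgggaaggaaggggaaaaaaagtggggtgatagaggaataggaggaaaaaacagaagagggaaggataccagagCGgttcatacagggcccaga
Over the 23 Hox windows the median was 15 CpG pairs and 58.0% GC, against 7 pairs and 52.7% GC over all 32851 windows. The NF-kB consensus motif, searched by its usual degenerate form on both strands, matched 1 of the 23 windows (4.35%), that of Hoxa13, and 8.46% of all windows. It matched 0 of the 9 windows of genes above the level. A match is a run of letters and not a binding site, and a window without one says nothing of binding elsewhere.

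The clusters also hold microRNA genes, which are known to repress Hox messages. Their mature 5p forms are given with the seed, bases 2 to 8, in capitals (RefSeq, GRCm38.p6), since they fall into a pair of families by seed. miR-196a-5p comes from Mir196a-1 in Hoxb and Mir196a-2 in Hoxc, miR-196b-5p from Mir196b between Hoxa9 and Hoxa10, miR-10a-5p from Mir10a in Hoxb and miR-10b-5p from Mir10b in Hoxd.
miR-196a-5p: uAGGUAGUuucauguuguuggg
miR-196b-5p: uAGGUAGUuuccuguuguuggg
miR-10a-5p: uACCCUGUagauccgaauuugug
miR-10b-5p: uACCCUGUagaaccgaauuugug
Counted from the 5′ end, miR-196b differs from miR-196a by A12C and miR-10b from miR-10a by U12A, both outside the seed. The rows measure RNA over the gene and do not tell the mature form apart. Of 8 measured noncoding genes of the clusters 0 passed the limma test, with a median log2 fold change of -0.16, which was -0.085 under cyclic loess, -0.047 under quantile normalization, -0.013 with centred arrays and -0.22 without WT array 1. Mir196a-2 had the smallest p (log2 fold change -0.57, SE 0.17, limma adjusted p = 0.134) at signals of 3.02 to 3.35 in KO and 3.52 to 3.98 in WT cells, below the level. Hoxaas2, antisense in the Hoxa cluster, had -0.29 (limma adjusted p = 0.236).

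Chosen after their values were seen, Mir196b and Mir615 were the noncoding genes above the level on all KO arrays. Mir196b, which lies inside the Hoxa stretch, had 6.38, 6.51 and 6.52 in KO cells, against 6.25, 6.53 and 6.98 in WT cells. Mir615, whose gene lies within Hoxc5 in the RefSeq table, had 6.37, 6.38 and 6.37 in KO cells, against 6.66, 6.52 and 6.55 in WT cells, while Hoxc5 itself was below the level. The log2 fold changes were -0.12 (SE 0.19) and -0.20 (SE 0.13), and neither passed the limma test (adjusted p = 0.707 and 0.347). Mir10a and Mir10b lay from 2.31 to 2.78 on all arrays.

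Of 8 measured genes of HOX partner proteins, 6 were above the level in KO cells. Of the 8, 0 passed the limma test, 2 had an unadjusted p under 0.05, and the list's median log2 fold change was -0.31, against -0.04 over all genes, and stayed negative under the other normalizations (-0.30 to -0.17). Meis1, whose product binds DNA with HOXA9 and which is needed by stem cells, had 9.24, 9.58 and 9.62 in KO cells, against 9.72, 10.1 and 10.3 in WT cells. All KO arrays lay below all WT arrays. Its log2 fold change was -0.59 (SE 0.20, limma adjusted p = 0.161), and -0.76 without WT array 1 (limma adjusted p = 0.0390, range over 15 alternatives 0.0183 to 0.403). Pknox2 had -0.53 (limma adjusted p = 0.122) and was not above the level on any array.

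Genes of the trithorax side that keep Hox clusters active were mostly well above the level. Of 17 measured 0 passed the limma test, and 2 had an unadjusted limma p under 0.05, against 21.6% of all genes. The median log2 fold change was 0.14, which was 0.29 with centred arrays, 0.022 under quantile normalization and 0.0098 under cyclic loess. It turned to -0.04 without WT array 1. Kmt2a had 9.11, 9.18 and 9.16 in KO cells, against 8.57, 9.38 and 9.57 in WT cells, with WT array 1 lowest (log2 fold change -0.02, SE 0.25, limma adjusted p = 0.955). The smallest p belonged to Ash2l (0.49, limma adjusted p = 0.123) and Dpy30 (0.39, limma adjusted p = 0.195), shared subunits of the histone methylation complexes. Of the Cdx genes, which act on Hox clusters in embryonic blood formation, Cdx2 and Cdx4 lay below the level on all arrays. Cdx1 lay at 6.41 to 6.58 in KO and 6.51 to 6.69 in WT cells. It was above the level on all KO arrays and on WT arrays 2 and 3.

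All 20 measured Polycomb genes were above the level in KO cells. Of these 0 passed the limma test, and 3 had an unadjusted limma p under 0.05, against 21.6% of all genes. Of the 20 genes 18 were positive, with a median log2 fold change of 0.15. This median was 0.04 without WT array 1, -0.085 under cyclic loess and -0.0064 under quantile normalization. Over all genes the median was 0.30 in the bright and -0.09 in the middle bin, where 5760 and 2638 of 6646 genes were positive. The Polycomb genes were not all in the bright bin, since Cbx7 and Cbx8 had lower means than Hoxa4 of the middle bin. Ezh2, the histone methyltransferase of Polycomb complex PRC2, had 9.55, 9.47 and 9.63 in KO cells, against 8.80, 9.17 and 9.16 in WT cells (log2 fold change 0.51, SE 0.15, limma adjusted p = 0.137). Asxl2, a partner of the deubiquitinase BAP1, had 0.56 (limma adjusted p = 0.192).

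Of 15 genes described downstream of HOXA9 and MEIS1 in mouse leukaemia models, 0 passed the limma test. An unadjusted limma p under 0.05 was found for 1 of them, against 21.6% of all genes. The median log2 fold change was 0.04, which turned to -0.19 under cyclic loess, -0.15 under quantile normalization and -0.095 without WT array 1. Trib2, a leukaemia gene of the tribbles pseudokinase family, had 8.21, 7.48 and 8.44 in KO cells, against 6.54, 7.23 and 6.93 in WT cells (log2 fold change 1.14, SE 0.27, limma adjusted p = 0.0915). Erg, a stem cell transcription factor gene, had -0.43 (limma adjusted p = 0.244), and -0.62 without WT array 1 (limma adjusted p = 0.0419, range over 15 alternatives 0.0355 to 0.523). Of 15 other homeobox genes 0 passed, with a median of -0.07 that turned positive under quantile (0.062), cyclic loess (0.044) and median-centred (0.078) normalization. Tlx1 (-0.61, limma adjusted p = 0.157) and Dlx2 (-0.40, limma adjusted p = 0.237) had the smallest p, both below the level. Hhex and Gbx2 were the members above it on all 3 KO arrays.

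Markers of other cells moved with genotype beside these values. All 7 listed myeloid progenitor markers passed higher in KO cells (median log2 fold change 2.80), where 0.818% of all genes passed in either direction. Their list means per array were 10.4 to 10.7 in KO and 7.82 to 8.01 in WT cells. All 8 measured stem cell markers were negative (7 of 8 with arrays centred on their medians), with list means of 5.90 to 6.25 in KO and 6.78 to 7.29 in WT cells. Of them Hlf alone passed lower (-1.27, limma adjusted p = 0.0485, range over 15 alternatives 0.00685 to 0.271). An unadjusted limma p under 0.05 was found for 7 of the 8, against 21.6% of all genes. The number of stem cell markers passed lower was 7 without WT array 1 and 5 with the replicate block. Over all genes 4.66% and 1.87% passed in these fits, in either direction. Of 4 mast cell markers 2 passed higher, Fcer1a and Ms4a2, and of 6 lymphocyte markers Nkg7 did. Of 8 mature myeloid, 10 stromal and endothelial, and 4 erythroid and megakaryocyte markers 0 passed, and with the replicate block Emcn, an endothelial and stem cell marker, passed lower (log2 fold change -1.48, limma adjusted p = 0.0283). Of the mature myeloid markers, Ly6g, Adgre1, Ltf and Mmp9 lay below the level on all arrays. S100a8 and S100a9 were above it on all 6 arrays, Itgam on 3 KO and 2 WT arrays, and Camp on 2 KO arrays. The part of these shifts in the Hox values was not tested. In such bulk samples fewer cells of a type and less RNA per cell cannot be told apart.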

How the data were processed

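The authors deposited log2 expression values for 6 arrays; per the submitters' processing notes the tools were RMA, Affymetrix Expression Console and Partek, with no versions given. RMA corrects background, normalizes and summarises probes. The design text names an exon array, whereas the probe annotation of the table is that of a gene array; this was not settled here. Of 35557 rows, 21789 had 1 symbol, and the brightest row per gene left 19938 genes. KO was compared with WT in limma 3.58.1 (R 4.3.3), genotype alone in the model, 4 residual degrees of freedom, Benjamini-Hochberg adjustment over all genes at 0.05, after a check on simulated data. The array number limits precision, and p-values measure the spread between the samples of a genotype. Same-numbered arrays deviated together (correlation 0.368, 0.119 and 0.162, each over 0.1), though KO 3 with WT 2 and KO 2 with WT 3 did as much (0.195 and 0.183) and the labels do not say what a number marks. A replicate block was an alternative, beside other normalizations, a dim-gene filter, variance settings, array weights, other rows and levels, and leaving out each array. Values by array are given for Hox genes above the level and the next 2 by p, and 2 genes are named per list, besides Kmt2a, Meis1, Rela and Kit; Hoxd11, Hoxb2, Cdx2, Cdx4 and further noncoding, homeobox and marker genes were named after their values were seen. Members and lists were chosen with earlier results of these data known.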

Additional observations from a re-analysis of the deposited data

How the results depend on the processing

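The count of Hox genes past the threshold, 0, was unchanged under the replicate block, quantile, cyclic loess and median-centred normalization, the dim-gene filter (which left 17 of 37), an intensity trend, a robust prior and the mean of rows; array weights gave 3, all lower in KO cells (Hoxa3, Hoxa6 and Hoxc6), and leaving out 1 array gave 0 to 2, the 2 without WT array 1. At an unadjusted limma p under 0.05 there were 1 to 6 Hox genes over all fits. The median log2 fold change of the Hox genes was 0.033 under quantile normalization, 0.021 under cyclic loess and 0.057 with arrays centred on their medians. Centring shifts the log2 fold change of every gene by the same amount, here 0.15. The cause under quantile and cyclic loess normalization was not tested. The number of all genes past the threshold, 163 (137 higher, 26 lower), was 372 with the replicate block, 104 under quantile normalization, 530 with fewer, brighter genes tested, and 1599 with array weights, and leaving out 1 array gave 21 to 929. The higher and lower calls were 186 and 6 with centred arrays, and 149 and 70 under cyclic loess. With the 99th percentile as level, 5 Hox genes in KO and 0 in WT cells were above it. In WT cells the number was 5 with vomeronasal receptors added, 11 where 2 of 3 arrays sufficed, and 3 to 11 leaving out 1 array. The replicate block changed no call of a Hox gene. The 3 arrays per genotype and the low signal of most Hox genes limit what can be seen.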
